A study of Mus musculus with 6 samples.

Results

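The genes described here encode ISG15 and FAT10, ubiquitin-like proteins that cells attach to other proteins after interferon or cytokine exposure, together with the enzymes that attach and remove them. The set was chosen by gene symbol and holds 8 of the 16583 genes in the expression table: Isg15, Uba7, Ube2l6, Herc6, Trim25, Usp18, Ubd and Uba6. All 8 were found, and all 8 passed the filter on low counts that 11656 genes passed. The libraries came from MC38, a mouse colorectal cancer cell line, with 3 libraries titled as SRC-1 knockout and 3 titled as knockout control. Both groups were exposed to interferon gamma, at 100 ng per mL and for 24 hours, so every value below is from stimulated cells. SRC-1 is a nuclear receptor coactivator encoded by Ncoa1, and the study asked how it raises PD-L1, an immune checkpoint ligand. The labels do not say how the knockout was made, whether it is a clone or a pool, or whether replicates are separate cultures. P-values therefore measure only the spread between these libraries, which may be technical. The genotype field of knockouts 2 and 3 names SRC-2 and SRC-3 instead of SRC-1, and the titles were followed.

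ISG15 is conjugated in the same kind of enzyme cascade as ubiquitin. UBA7 (the E1) activates it, UBE2L6 (the E2) carries it, and a ligase (the E3) places it on substrates, a role that HERC6 has in the mouse and that TRIM25 is also reported to have. USP18 removes ISG15 from proteins and, separately, dampens signalling at the type I interferon receptor. FAT10, the product of Ubd, is a tandem ubiquitin-like protein induced by interferon gamma and TNF that directs its substrates to the proteasome, and UBA6 activates both FAT10 and ubiquitin.

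Promoter sequences were examined after the 2 modifier genes were seen to move in opposite directions in the comparison below. They are given as description, and whether motifs relate to the direction of a gene's change was not tested. RefSeq promoter windows of build GRCm38.p6, 250 bases before to 50 bases after the annotated start, were at hand for 6 of the 8 genes, and Usp18 and Uba6 had no entry. Both strands were searched for the interferon-stimulated response element (ISRE, GAAANNGAAA), for the IRF half-site (AANNGAAA) that each ISRE match contains, and for the interferon gamma activated site (GAS, TTCNNNGAA). The 250 bases before the start of Isg15 (chr4:156200819-156201068, minus strand) and of Ubd (chr17:37193642-37193891, plus strand) are shown 5′ to 3′, with matches to these motifs in capitals.
Isg15: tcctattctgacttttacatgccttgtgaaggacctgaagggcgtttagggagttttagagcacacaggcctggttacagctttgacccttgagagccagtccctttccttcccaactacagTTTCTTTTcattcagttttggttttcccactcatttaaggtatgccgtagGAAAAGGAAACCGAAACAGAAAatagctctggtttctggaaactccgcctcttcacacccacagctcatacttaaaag
Ubd: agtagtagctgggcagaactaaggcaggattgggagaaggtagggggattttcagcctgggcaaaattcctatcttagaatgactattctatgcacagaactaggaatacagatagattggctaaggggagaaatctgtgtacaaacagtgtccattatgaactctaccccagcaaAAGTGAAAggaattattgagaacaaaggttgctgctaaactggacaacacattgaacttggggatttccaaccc

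The Isg15 window held 3 overlapping ISRE matches, with first bases at -78, -72 and -66 from the start, and 1 separate IRF half-site at -128 on the opposite strand. The Ubd window held 1 IRF half-site, at -74, and no ISRE match. Uba7 held 1 half-site at -27 and Trim25 held 1 at -4, both on the opposite strand, while Ube2l6 and Herc6 held none. None of the 6 windows matched the GAS letters, which says only that those letters are not in these windows. Among 32851 mouse promoter windows of 300 bases, 3.44% held an ISRE match, 23.9% an IRF half-site and 8.3% a GAS match.

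The libraries held between 16329459 and 17207625 expected counts. Ncoa1, the targeted gene, had 16.7, 10.1 and 16.1 CPM (counts per library size, TMM-scaled) in knockouts 1, 2 and 3, against 18.2, 18.5 and 18.05 CPM in controls 1, 2 and 3. Its transcript was still counted in each knockout library, below every control in CPM. In TPM the groups overlapped. The values were 3.72, 1.69 and 3.48 in knockouts 1, 2 and 3, against 3.49, 3.42 and 3.48 in controls 1, 2 and 3. The difference was not called (log2 fold change -0.35, SE 0.184, edgeR adjusted p = 0.179), but it was called once each library's trends in transcript length and GC content were taken out (-0.45, adjusted p = 0.00643), also with the replicate block added (-0.45, adjusted p = 0.00883). "Knockout" therefore refers to the label. Knockout 2 stood apart, with a correlation in log CPM across genes of 0.978 and 0.981 with knockouts 1 and 3, which correlated at 0.996 with each other. The label of colorectal cancer cells was not matched by intestinal epithelial markers. The 11 of 12 such markers in the table summed to 1.19 to 1.85 TPM in knockouts and 1.42 to 2.29 TPM in controls, and Epcam, Krt18 and Krt19 averaged 0 TPM in knockouts. Leukocyte markers (8 of 10 in the table) summed to 6.53 to 8.01 TPM in knockouts and 14.2 to 17.1 TPM in controls. Most of each sum was Cd68, which averaged 6.15 TPM in knockouts and 13.9 TPM in controls. Only Cd68 and Lyz2 were tested, and both were called lower. Cd79a, not tested, averaged 0.35 TPM in knockouts and 0.14 TPM in controls. Ptprc, the defining pan-leukocyte gene, averaged 0.00667 TPM in knockouts and 0.04 TPM in controls. Stromal and endothelial markers (10 of 10) summed to 558 to 913 TPM in knockouts and 615 to 688 TPM in controls, and their members moved both ways. Col3a1 was 2-fold higher (adjusted p = 0.00119), Dcn 3.73-fold lower (adjusted p = 1.98e-05) and Pdgfrb 8.48-fold lower (adjusted p = 5.32e-05), while Pdgfrb averaged 0.34 TPM in knockouts and 2.68 TPM in controls. Col3a1 averaged 673 TPM in knockouts and 319 TPM in controls, and Dcn 90.3 and 321 TPM. Pdgfra (21.2 and 18.25 TPM) and Acta2 (1.33 and 0.65 TPM) were not called. Col1a1, Col1a2, Pecam1, Cdh5 and Kdr averaged at most 0.127 TPM in either group and were not tested. In bulk RNA, fewer cells of a kind and less RNA per cell cannot be told apart, and the part of these markers in the results below was not tested.

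The ISG15 arm was lower in the knockout at its modifier, its protease and both ligases, whereas FAT10 mRNA was higher. Of the 8 genes, 4 fell (Isg15, Usp18, Herc6 and Trim25), 1 rose (Ubd) and 3 were not called (Uba7, Ube2l6 and Uba6) in edgeR's quasi-likelihood test at an adjusted p under 0.05. Among all tested genes 35.7% were called, 18.5% lower and 17.1% higher, so calls were common in this comparison. The median log2 fold change was -0.28 over the 8 genes and 0.02 over all tested genes. The knockout and control libraries did not overlap in CPM for the same 5 genes, as was true of 51.4% of all tested genes. Without knockout 2 all 8 genes were called, 6 lower and 2 higher, while 69.6% of all genes tested in that fit were called, 35% lower and 34.6% higher.

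Isg15, the modifier gene, had 693, 856 and 770.5 TPM (transcript abundance, scaled for length and depth) in knockouts 1, 2 and 3, against 1225, 1324 and 1376 TPM in controls 1, 2 and 3. Every knockout lay below every control, and knockout 2 was the highest of the knockouts. The gene fell 1.74-fold (log2 fold change -0.80, SE 0.172, 95% interval -1.20 to -0.39, edgeR adjusted p = 0.011). Without knockout 2 the fall was 2.03-fold, with an adjusted p of 2.12e-12. By mean TPM among 16583 genes, Isg15 ranked 200 in the knockouts and 122 in the controls, so it stayed an abundant transcript. Isg15 is gene 100038882 on chromosome 4, 156199424 to 156200818, minus strand, and is the gene whose upstream bases hold the overlapping ISRE matches. A lncRNA gene, Gm46878, overlaps it and was not analysed here. The library kit is not stated to keep strand, so reads of the pair cannot be told apart. An annotated transcript of another gene, AC151275.1, is 95.2% identical to Isg15 over 482 bases, which leaves some uncertainty in how reads were assigned.

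Uba7 and Ube2l6, the E1 and E2 of the ISG15 cascade, were close between the groups. Uba7 had 26.5, 23.4 and 29.2 TPM in knockouts 1, 2 and 3, against 26.5, 30.3 and 28.9 TPM in controls 1, 2 and 3. The groups overlapped, and the log2 fold change was -0.18 (SE 0.0956, 95% interval -0.40 to 0.05, edgeR adjusted p = 0.192). Ube2l6 had 257, 257 and 267 TPM in knockouts 1, 2 and 3, against 241, 271 and 267 TPM in controls 1, 2 and 3. These ranges overlapped too, with a log2 fold change of -0.04 (SE 0.115, 95% interval -0.31 to 0.23, edgeR adjusted p = 0.793). Neither interval shows that the genes were unchanged. The interval of Uba7 just overlapped that of Isg15 (-1.20 to -0.39) and that of Ube2l6 did not, but differences between genes were not tested. Without knockout 2, Uba7 and Ube2l6 were called lower, with log2 fold changes of -0.21 (adjusted p = 0.00714) and -0.16 (adjusted p = 0.00946). The sign of Ube2l6 turned under other settings, being 0.13 once each library's trends in length and GC were taken out (adjusted p = 0.113). Uba7 is gene 74153 on chromosome 9, 107975567 to 107984056, and Ube2l6 is gene 56791 on chromosome 2, 84798828 to 84810003, both on the plus strand. A transcript of Gm20661 is 98.6% identical to Uba7 over 208 bases. Parts of the Ube2l6 transcript are at least 90% identical, over at least 100 bases, to transcripts of 12 other genes, 2 of them (Ift46 and D10Wsu102e) in the table, so the counts of both genes are less certain.

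**Figure D1:**
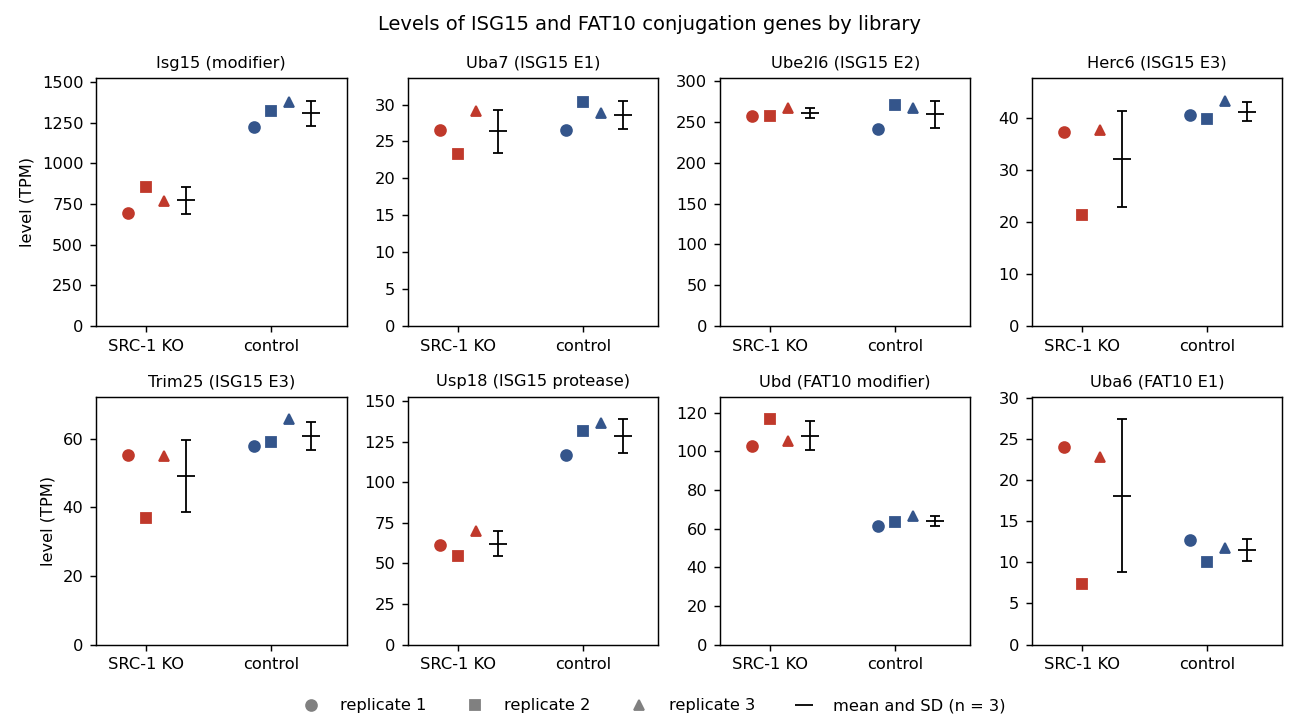
Level in TPM (vertical axes, each starting at 0) of each of the 8 genes in SRC-1 knockout libraries (red, left) and control libraries (blue, right); marker shapes give the replicate and the black bar the mean with SD (n = 3). Isg15 and Usp18 lie lower and Ubd higher in all 3 knockouts, while Uba6 is at 24.0 and 22.8 TPM in knockouts 1 and 3 and at 7.37 TPM in knockout 2.

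The ligase genes fell modestly. Herc6, the main ISG15 ligase of the mouse, had 37.3, 21.4 and 37.6 TPM in knockouts 1, 2 and 3, against 40.6, 39.7 and 43.2 TPM in controls 1, 2 and 3. The knockouts all lay below the controls, with knockout 2 far below the others. The fall was 1.36-fold (log2 fold change -0.44, SE 0.127, 95% interval -0.74 to -0.14, edgeR adjusted p = 0.0322), and 1.24-fold without knockout 2 (adjusted p = 2.49e-06). It was not called without any 1 of the controls, with adjusted p-values of 0.0874, 0.0947 and 0.112 without controls 1, 2 and 3. Nor was it called by limma on deposited TPM (adjusted p from 0.217 to 0.287 over 3 fits) or FPKM (adjusted p = 0.052).

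Trim25, a RING ligase that also ubiquitinates the RNA sensor RIG-I, showed the same arrangement of libraries. It had 55.2, 37.0 and 54.9 TPM in knockouts 1, 2 and 3, against 57.8, 58.9 and 65.6 TPM in controls 1, 2 and 3. The groups did not overlap, but knockouts 1 and 3 lay close under the lowest control. The fall was 1.31-fold (log2 fold change -0.38, SE 0.0889, 95% interval -0.59 to -0.18, edgeR adjusted p = 0.0142), and 1.25-fold without knockout 2 (adjusted p = 3.07e-06). The adjusted p was 0.0586 without control 2, 0.0722 without control 3 and 0.184 to 0.247 over the 3 limma fits on TPM, so the call was lost in each. Herc6 is gene 67138 on chromosome 6, 57580992 to 57665136, and Trim25 is gene 217069 on chromosome 11, 88999403 to 89020294, both on the plus strand. Each overlaps a non-coding gene not analysed here, Gm19244 and Gm11496. A transcript of Gm45193 is 100.0% identical to Herc6 over 688 bases, so the counts of Herc6 are also less certain.

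Usp18, the ISG15 protease gene, fell furthest of the 8. It had 61.6, 54.8 and 70.0 TPM in knockouts 1, 2 and 3, against 117, 132 and 137 TPM in controls 1, 2 and 3. The highest knockout was far under the lowest control, and the lowest knockout was knockout 2 in TPM and knockout 1 in CPM. The fall was 2.16-fold (log2 fold change -1.11, SE 0.0994, 95% interval -1.34 to -0.87, edgeR adjusted p = 0.00035), and 2.20-fold without knockout 2 (adjusted p = 9.73e-10). Usp18 is gene 24110 on chromosome 6, 121245906 to 121270917, plus strand, and overlaps the lncRNA gene Gm44148, which was not analysed here. A transcript of Gm44148 is 100.0% identical to Usp18 over 126 bases, so the counts of Usp18 are also less certain.

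Ubd, which encodes FAT10, was the one gene of the 8 called higher in all libraries together. It had 103, 117 and 105 TPM in knockouts 1, 2 and 3, against 61.3, 63.6 and 66.4 TPM in controls 1, 2 and 3. All knockouts lay above all controls, with knockout 2 the highest. The rise was 1.65-fold (log2 fold change 0.72, SE 0.154, 95% interval 0.36 to 1.09, edgeR adjusted p = 0.0106), and 1.44-fold without knockout 2 (adjusted p = 5.19e-08). Without control 1 the adjusted p was 0.0537. Ubd is gene 24108 on chromosome 17, 37193892 to 37196101, plus strand.

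Uba6, the E1 that FAT10 shares with ubiquitin, did not behave alike in the 3 knockouts. It had 24.0, 7.37 and 22.8 TPM in knockouts 1, 2 and 3, against 12.7, 10.0 and 11.7 TPM in controls 1, 2 and 3. Knockouts 1 and 3 stood well above the controls, and knockout 2 stood below all of them. Over all libraries the difference was not called (log2 fold change 0.54, SE 0.321, 95% interval -0.22 to 1.29, edgeR adjusted p = 0.229). Without knockout 2 the log2 fold change was 0.86, or 1.81-fold higher, with an adjusted p of 9.17e-12. Uba6 is gene 231380 on chromosome 5, 86110720 to 86172743, minus strand.

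**Figure D2:**
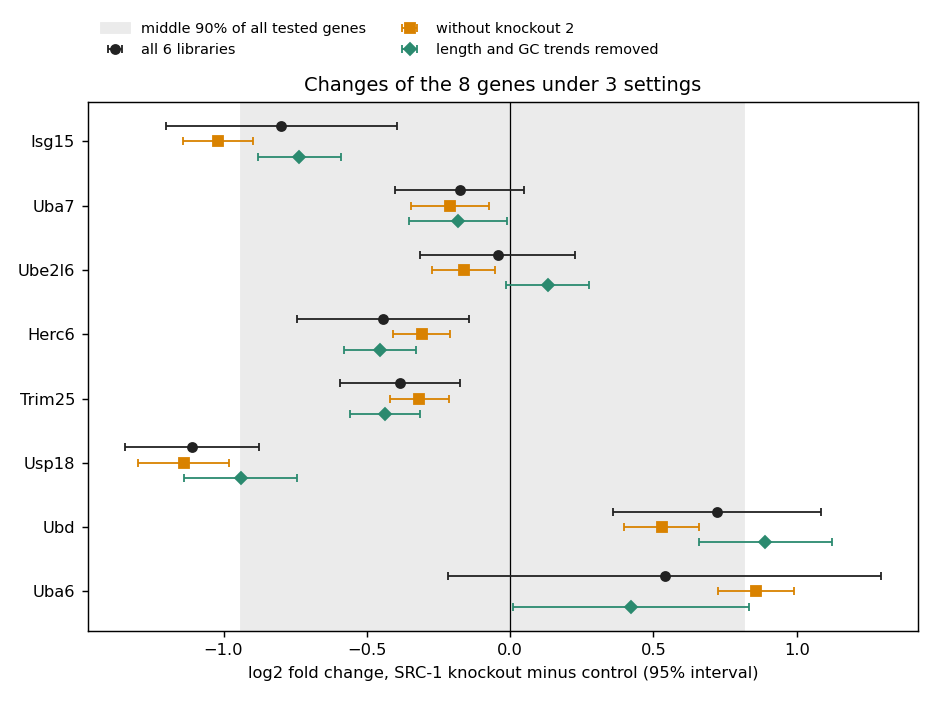
Log2 fold change of each gene, SRC-1 knockout minus control (horizontal axis), with 95% intervals, for all 6 libraries (black), without knockout 2 (orange) and after each library's length and GC trends were taken out (green); the grey band spans the middle 90% of all tested genes (-0.94 to 0.81). Isg15 and Usp18 lie below 0 and Ubd above 0 in each of these 3 settings, while the interval of Uba6 spans 0 with all libraries and does not without knockout 2.

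The distance of knockout 2 from the other knockouts was set beside a trend in transcript length and base composition fitted over all genes. For 5 of the 8 genes the measured and fitted values were close. In log2 CPM, knockout 2 minus the mean of knockouts 1 and 3 was 0.59 for Isg15, a 756-base transcript with 52.8% GC, and -0.45 for Herc6, a 4767-base transcript with 39.4% GC. A smooth trend in length and GC, fitted over all tested genes in each library, put these differences at 0.51 and -0.39. Trim25 measured -0.21 against a trend of -0.22, and Ube2l6 measured 0.33 against 0.27. The values were further apart for Ubd, measured at 0.52 against 0.21, and for Usp18, at 0.10 against 0.25. Uba6, with the longest transcript of the 8 (6590 bases) and the lowest GC content (37.4%), measured -1.31 against a trend of -0.59. Its deviation was exceeded in absolute size by 1.02% of tested genes, whereas that of Isg15 was exceeded by 17% and that of Usp18 (0.10) by 83.7%. The sum of deposited FPKM values, which scales TPM, was 813810 in knockout 2, against 670320 and 682320 in knockouts 1 and 3. A TPM in knockout 2 is therefore lower relative to its CPM than in the other knockouts. Isg15 was 1.17 times the mean of knockouts 1 and 3 in TPM and 1.5 times in CPM.

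With those trends removed, the knockouts were closer to each other for Isg15, Herc6 and Trim25, but not for Usp18. Isg15 stood at 267, 293 and 290 CPM in knockouts 1, 2 and 3, against 442, 473 and 501 CPM in controls 1, 2 and 3. The 3 knockouts were then nearly level and the fall was 1.66-fold (edgeR adjusted p = 7.63e-05). Herc6 (1.37-fold lower, adjusted p = 0.000344), Trim25 (1.35-fold lower, adjusted p = 0.00039), Usp18 (1.92-fold lower, adjusted p = 9.89e-05) and Ubd (1.85-fold higher, adjusted p = 0.000276) were called in the same directions. Uba6 stayed split, at 63.9, 39.0 and 64.6 CPM in knockouts 1, 2 and 3, against 44.7, 39.4 and 41.6 CPM in controls 1, 2 and 3, and was not called (adjusted p = 0.0798). The same 5 genes were thus called with and without the trends, and 51.5% of all tested genes were called with them removed.

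**Figure D3:**
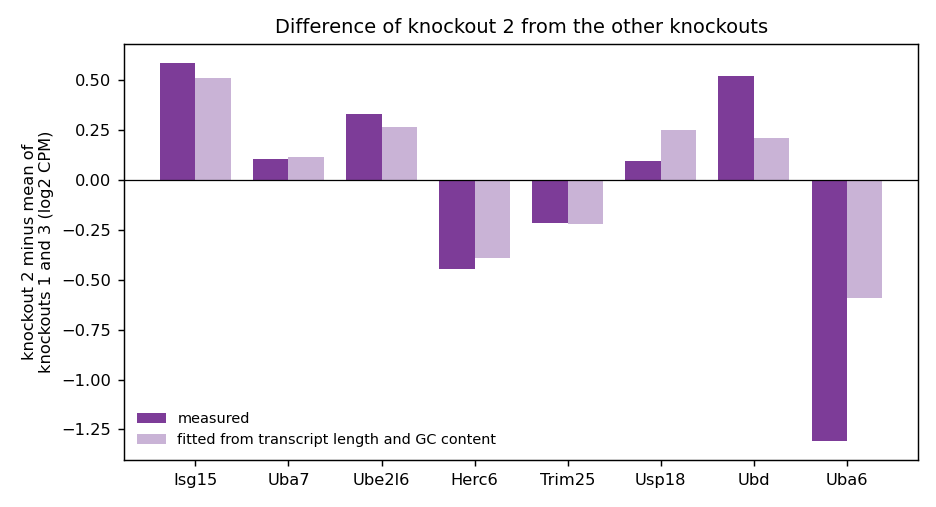
Knockout 2 minus the mean of knockouts 1 and 3 in log2 CPM (vertical axis) for each of the 8 genes, as measured (dark) and as fitted from transcript length and GC content over all genes (light). The pairs of bars are close for Isg15, Uba7, Ube2l6, Herc6 and Trim25, and Uba6 measures -1.31 against a fitted -0.59.

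On the per-length scale, Isg15 was the most abundant of the 8 in both groups, followed by Ube2l6. In knockouts the mean TPM then ran Ubd (108 ± 7.32), Usp18 (62.1 ± 7.62), Trim25 (49.0 ± 10.4), Herc6 (32.1 ± 9.25), Uba7 (26.4 ± 2.90) and Uba6 (18.1 ± 9.29; SD, n = 3). From Usp18 downward, each gene's range in the knockouts overlapped that of the next. In controls the order was Usp18 (128.5 ± 10.3), Ubd (63.8 ± 2.55), Trim25 (60.8 ± 4.20), Herc6 (41.2 ± 1.85), Uba7 (28.6 ± 1.91) and Uba6 (11.5 ± 1.35; SD, n = 3), where only Ubd and Trim25 overlapped. FAT10 mRNA was thus above that of the ISG15 protease in every knockout library and below it in every control library.

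Ratios of TPM within a library set the modifiers against each other and against their enzymes. Isg15 was called lower and Ubd higher in these same libraries, so the ratios restate those changes and are no separate evidence. The ratio of Isg15 to Ubd was 6.74, 7.35 and 7.32 in knockouts 1, 2 and 3, against 19.998, 20.8 and 20.7 in controls 1, 2 and 3. Each group was narrow and they lay far apart (exact permutation test over 20 splits, two-sided p = 0.1, the smallest this design allows, and 0.175 adjusted over 7 ratios). Isg15 per Ube2l6 was 2.70, 3.33 and 2.88 in knockouts 1, 2 and 3, against 5.09, 4.90 and 5.16 in controls 1, 2 and 3. This ratio did not overlap between the groups either, with the same exact p, and restates the fall of Isg15 beside a gene that was not called. Isg15 per Usp18 was closer between the groups, though without overlap, at 11.3, 15.6 and 11.0 in knockouts 1, 2 and 3, against 10.48, 10.1 and 10.1 in controls 1, 2 and 3. Ubd per Uba6 was 4.28, 15.8 and 4.62 in knockouts 1, 2 and 3, against 4.82, 6.34 and 5.68 in controls 1, 2 and 3 (exact two-sided p = 1). In knockouts 1 and 3 that ratio was below each control, and in knockout 2 it was far above. Of the remaining ratios, Isg15 per Uba7 was 29.7 ± 5.99 in knockouts and 45.8 ± 2.04 in controls (SD, n = 3) and did not overlap (exact p = 0.1). Isg15 per Herc6 and Uba7 per Uba6 did overlap (exact p = 0.4 for each).

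The genes whose profile over the 6 libraries was nearest to that of Isg15 were sought among 8856 genes with at least 10 CPM on average, by Euclidean distance of centred log2 CPM. They were Timm9 (distance 0.10), Nop56 (0.122), AA467197 (0.146), Ltbp4 (0.146) and Phf11b (0.148), against a median distance of 1.19. Nop56, a core protein of box C/D small nucleolar ribonucleoproteins, had 350.5, 428 and 354 TPM in knockouts 1, 2 and 3, against 616, 657 and 697 TPM in controls 1, 2 and 3. For Ubd they were Lhpp (0.0713), Ost4 (0.106), Dynlt1b (0.12), Dexi (0.12) and Rbx1 (0.139), with a median of 1.05. Rbx1, the RING subunit of cullin ligases, had 113, 139 and 120 TPM in knockouts 1, 2 and 3, against 76.8, 73.5 and 76.4 TPM in controls 1, 2 and 3. These likenesses describe 6 libraries in 2 groups and are given without a test.

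Genes next to the 8 on their chromosomes were compared as well. For Usp18 and Herc6 on chromosome 6, the median log2 fold change of the 536 tested genes of that chromosome was -0.16, and the nearest 10 on each side had medians of -0.30 and -0.20. Of the 20 genes around Usp18, 8 fell and 1 rose, where 18.5% of all tested genes fell and 17.1% rose. Around Ubd, which itself rose, 7 of 20 fell, with a median of -0.18. Around Isg15, which lies near the chromosome end, 3 of 14 neighbours fell and 1 rose, with a median of 0.01. Around Uba7, 4 rose and 2 fell (median 0.265), and around Uba6, 3 rose and 3 fell (0.01). Around Ube2l6, 3 rose and 6 fell (-0.056), and around Trim25, 0 rose and 3 fell (-0.011). The genes flanking Isg15, Agrn and Perm1, had log2 fold changes of 0.18 and 0.08. Those flanking Usp18, Pex26 and Slc6a12, had 0.456 and -3.191. Whether the neighbours differed from other genes was not tested.

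Partners of the 2 pathways moved in both directions. Of 24 listed partners, 23 were tested, 4 rose, 5 fell and 14 were not called, with a median log2 fold change of 0.03. Among all tested genes 17.1% rose and 18.5% fell. Without knockout 2, 8 were called higher and 7 lower, beside 34.6% and 35% of all genes tested in that fit. Sqstm1, the autophagy receptor p62, which binds FAT10, fell 2.21-fold, with 660, 623 and 673 TPM in knockouts 1, 2 and 3, against 1335, 1420 and 1424 TPM in controls 1, 2 and 3 (log2 fold change -1.15, SE 0.103, edgeR adjusted p = 0.000333). Nub1, which binds FAT10 and speeds its degradation, fell 1.43-fold, with 76.9, 66.7 and 77.9 TPM in knockouts 1, 2 and 3, against 96.4, 103 and 105 TPM in controls 1, 2 and 3 (adjusted p = 0.00251). Both were lower in every knockout, opposite to Ubd. Skp2, a ubiquitin ligase subunit known to act on USP18, rose 1.76-fold, with 47.8, 26.2 and 44.2 TPM in knockouts 1, 2 and 3, against 22.1, 19.8 and 21.5 TPM in controls 1, 2 and 3 (adjusted p = 0.00375). Ube2z, the E2 that takes FAT10 from UBA6, was at 67.3 ± 8.84 TPM in knockouts and 60.1 ± 1.05 TPM in controls (log2 fold change 0.10, adjusted p = 0.248). The other partners called were Vcp, Hdac6 and Mad2l1, which rose, and Ube2e1, Stat2 and Zc3hav1, which fell.

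Among factors that bind ISRE or GAS elements, Irf1, Irf7 and Irf9 fell. Of 8 listed, 7 were tested, 0 rose, 4 fell and 3 were not called, with a median of -0.29, beside 18.5% lower among all tested genes. Those that fell include Stat2, which is also counted among the partners above. Without knockout 2, 5 were called lower and 1 higher, beside 35% and 34.6% of all genes tested in that fit. The number called lower was 3 in the limma fits on TPM and without knockout 1, knockout 3, control 2 or control 3. Irf1 had 498, 457 and 504 TPM in knockouts 1, 2 and 3, against 795, 818 and 811 TPM in controls 1, 2 and 3 (1.72-fold lower, edgeR adjusted p = 0.000882). Irf7, an amplifier of type I interferon responses, had 104, 124 and 114 TPM in knockouts 1, 2 and 3, against 192, 243 and 235 TPM in controls 1, 2 and 3 (2.02-fold lower, adjusted p = 0.00495). Irf9, the DNA-binding subunit of ISGF3, had 83.9, 62.6 and 79.0 TPM in knockouts 1, 2 and 3, against 98.7, 106 and 106 TPM in controls 1, 2 and 3 (1.44-fold lower, adjusted p = 0.00156). For this list and for the other E1, HERC and TRIM genes below, 0 were also higher at an unadjusted p under 0.05 in edgeR, by DESeq2 and by limma on log2(TPM + 1). With the length and GC trends removed, 1 was called higher in this list, 1 among the other E1 genes and 1 among the HERC genes. The TRIM genes had 0 in that setting, and adding the replicate block left these counts the same. Whether these factors had a part in the changes of Isg15 or Usp18 was not tested.

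Calls among other conjugation systems stand beside the 35.7% of all tested genes called, or 69.6% without knockout 2. Of 8 other E1 genes, 0 rose, 2 fell (Uba3, the catalytic subunit of the NEDD8 E1, 1.54-fold, and its partner Nae1, 1.24-fold) and 6 were not called, with a median of -0.14. Without knockout 2, 6 were called lower and 1 higher. Among 19 genes of ubiquitin and other modifiers, 3 rose (Sumo2, Map1lc3b and Ubl3), 1 fell (Gabarapl1, 1.33-fold) and 15 were not called, with a median of 0.04. Map1lc3b, an autophagosome marker gene, was 1.35-fold higher (adjusted p = 0.0153) and Sumo2 was 1.18-fold higher (adjusted p = 0.0361). Without knockout 2, 5 were called higher and 7 lower, and after the length and GC trends were taken out 10 were higher and 2 lower.

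Of 18 genes that attach or remove SUMO, NEDD8, UFM1 and the ATG modifiers, 2 rose, 4 fell and 12 were not called, with a median of 0.06. Ube2f, a NEDD8 E2, fell 1.46-fold (adjusted p = 0.00853), the UFM1 protease gene Ufsp2 fell 1.30-fold (adjusted p = 0.00622) and Atg10 fell 1.47-fold (adjusted p = 0.0182). Without knockout 2, 8 were higher and 7 lower. The 4 other HERC genes, Herc1 to Herc4, had 0 called in either direction by edgeR (0 also at an unadjusted p under 0.05, by DESeq2 and by limma on log2(TPM + 1)) and a median of 0.21, against the fall of Herc6. The nearest to a call was Herc2 (log2 fold change 0.47, adjusted p = 0.13), and without knockout 2 all 4 were called higher. With the length and GC trends removed, 1 of the 4 was called higher. Of 8 interferon-linked TRIM genes, 0 rose, 2 fell and 6 were not called, with a median of -0.08. Trim34a fell 1.48-fold (adjusted p = 0.00213) and Trim26 fell 1.29-fold (adjusted p = 0.0221), while Trim21 was not called (-0.09, adjusted p = 0.458). Without knockout 2, 2 TRIM genes were lower and 1 higher, and in the limma fits on TPM 0 or 1 were lower.

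**Figure D4:**
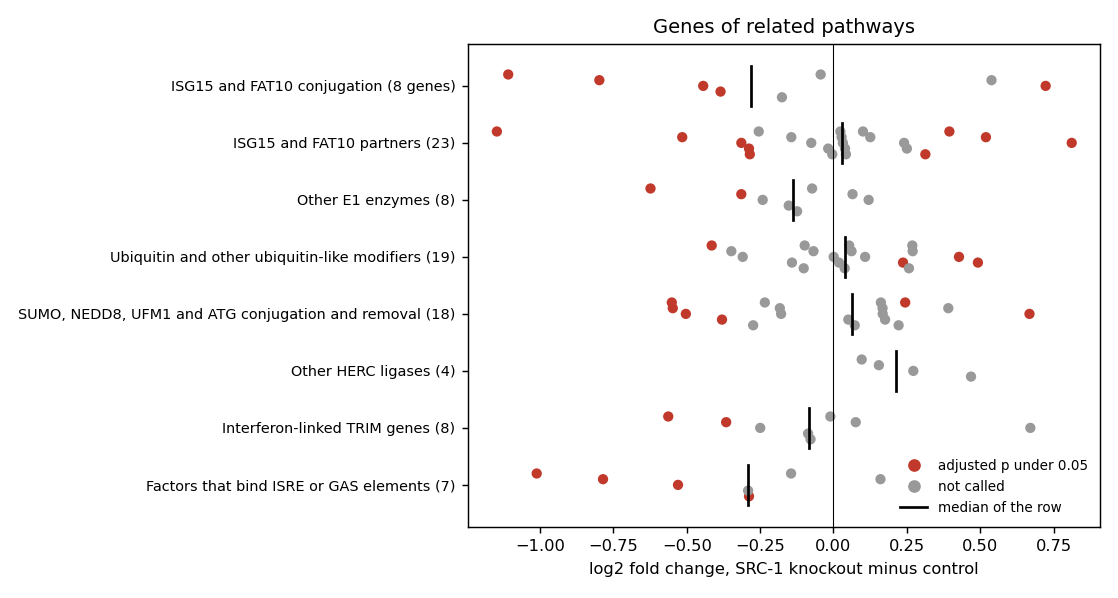
Log2 fold change, SRC-1 knockout minus control (horizontal axis), of the 8 genes (top row) and of the tested genes of 7 related lists (number tested in brackets); red points had an adjusted p under 0.05, grey points did not, and the black line is the row's median. The medians of the 8 genes (-0.28) and of the factors that bind ISRE or GAS elements (-0.29) lie lowest, and the other rows have medians between -0.14 and 0.21.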

How the data were processed

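Gene-level values were analysed for 6 RNA-seq libraries. The deposited table gives, per the file headers, read counts, FPKM and TPM for each library. The deposited read counts hold expected counts, 88.9% of which are whole. The authors made the deposited TPM and FPKM values with a program not given in the sources used here. HISAT2, StringTie, SAMtools and build GRCm38.p6 are listed in the submitters' processing notes.

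Expected counts were rounded, filtered with filterByExpr (minimum count 10, minimum total 15) and tested over all genes with edgeR 4.0.16 in R 4.3.3 (TMM, robust quasi-likelihood, two-sided, Benjamini-Hochberg adjustment). Called, rose or fell means an adjusted p under 0.05. Alternatives used limma 3.58.1 on log2(TPM + 1), DESeq2 1.42.0, other scalings and filters, each library left out, a replicate block, and offsets for transcript length and GC content (mgcv 1.9.3, known for 98% of tested genes). Positions are RefSeq's. Of 16583 gene identifiers 16531 matched RefSeq.

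The genes and the 10 lists (7 of pathway genes, 3 of markers) were chosen with earlier results of these data known. Named besides the 8 genes and Ncoa1 are, per pathway list, up to 3 called genes with the smallest adjusted p, or the smallest p where none is called, and the 5 nearest profiles to Isg15 and Ubd. Other genes named from a list (Ube2z, Trim21 and the rest of small counts), flanking genes and markers were chosen after their values were seen. The lists hold other genes that are counted without being named, including a gene that is not reported by name here.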

Additional observations from a re-analysis of the deposited data

How the results depend on the processing

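The directions of Isg15, Usp18, Herc6, Trim25, Ubd, Uba7 and Uba6 held in all 18 alternatives, and the calls of Isg15 and Usp18 held in all of them (log2 fold changes from -1.02 to -0.66 and from -1.18 to -0.94). Ube2l6 turned to 0.007 in limma on log2(TPM + 1), on log2(TPM + 0.1) and without a filter on TPM, to 0.132 with the length and GC trends removed and to 0.133 with the replicate block added to that. Leaving out 1 library at a time put Ube2l6 between -0.162 and 0.034. The genes called lower were 4 as reported and 2 in each of the 3 limma fits on TPM, where Herc6 and Trim25 were lost. Over the fits without 1 library, 2 to 6 were called lower, 0 to 2 higher, and 2406 to 8208 of all genes were called, against 4157 with every library. Without knockout 2, 6 were lower, 2 higher and 8208 genes called. Without control 2 or 3, 2 were lower, and without control 1 the call of Ubd was lost (adjusted p = 0.0537). The number of all genes called without control 1, 2 or 3 was 2576, 2406 or 2409. With the length and GC trends removed 55.7% of calls were higher, against 48.1% as reported. Whether the replicate numbers pair samples is not settled here. Deviations of same-numbered libraries correlated at 0.161, 0.261 and 0.0401. Knockouts 1 and 2 each correlated best with the control of the same number, and knockout 3 correlated best with control 1 (0.186). The replicate block alone left 4 lower and 1 higher of the 8, and 4337 genes called. With the block and the trends removed together 2 were higher, Uba6 being added (0.39, adjusted p = 0.0289). Counts of the 7 lists moved by over 1.5 times in 70 of 252 comparisons of a count with its value under an alternative. Expected counts of the 8 genes ran from 499 (Uba6) to 8527 (Isg15) per library.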
